A study of Homo sapiens with 6 samples.

Results

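NDRG1, a cytoplasmic protein linked to differentiation and the control of metastasis, has a gene that low oxygen induces. Its transcript was higher in L3.6pl cells sorted for low surface L1CAM (L1low) than in those sorted for high L1CAM (L1high), and the question here was whether genes of the hypoxia response and of glycolysis moved with it. The members are NDRG1, 6 genes of the hypoxia-inducible factor (HIF) subunits and oxygen sensing, 16 genes that hypoxia is known to induce and 16 glycolytic enzymes. They were listed by gene symbol and matched by Ensembl identifier, and all 39 were among the 19469 genes of the count table.

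HIF is a pair of proteins, an alpha subunit (HIF1A or EPAS1) and ARNT. With oxygen present, prolyl hydroxylases of the EGLN family mark the alpha subunit and VHL, part of a ubiquitin ligase, sends it to the proteasome, so that HIF is controlled mainly at the level of protein and not of transcript. When oxygen falls, HIF switches on genes for glucose uptake, glycolysis, blood vessel growth, pH control and its own hydroxylases, and pancreatic ductal adenocarcinoma is known for its poorly perfused, hypoxic tissue.

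L3.6pl is an established line of metastatic human pancreatic cancer, which the labels class as adenosquamous carcinoma and whose name their cell line field writes as L6.6pl. Untreated cells in serum-containing medium were sorted by FACS, and mRNA was sequenced from 3 L1high and 3 L1low libraries, so both groups are fractions of a single line and no library was grown under a stated low oxygen level. The sources used here do not say whether the libraries came from separate cultures or sorts, so p-values measure the spread between these libraries, which may be technical. Between 16334610 and 21064685 reads per library were counted on genes. The study's own comparison left out L1high replicate 3 with no stated reason, so tests were made over the other 5 libraries and, beside them, over all 6. Where L1high replicate 1 or 2 was left out, L1high replicate 3 took its place. Levels are CPM, read counts set against library totals that were scaled with edgeR's TMM factors over all 6 libraries, and values of single libraries stand in the order of replicates 1, 2 and 3. Tests were adjusted by the Benjamini-Hochberg method over all genes, and a gene was called when its adjusted p in edgeR's quasi-likelihood test was under 0.05. Positive log2 fold changes mean higher in L1low cells. The sort marker L1CAM was lower in L1low cells (log2 fold change -1.90). All 7 epithelial markers listed were in the table, where KRT19 was higher (0.69) and EPCAM lower (-0.37). EPCAM was not called without L1low replicate 2 (adjusted p = 0.095), L1high replicate 1 (0.16) or L1high replicate 2 (0.11). Of 11 markers of blood, endothelial, fibroblast, acinar and islet cells, 8 were not in the table, among them PTPRC, VWF, DCN and PDGFRB, and LUM alone was called (0.74). The summed level of the 3 that were in the table ran from 98.6 to 109.5 CPM in L1high and from 153.3 to 173.2 in L1low libraries, and its part in the results was not tested.

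Of the 39 members, 12 were called over the 5 libraries, and all 12 were higher in L1low cells. They were NDRG1, ADM, PFKFB3, PFKFB4, ALDOC, EGLN3, CA9, KDM3A, ENO1, ARNT, GPI and PKM. This is 30.8% of the members, where 7.57% of all genes tested were called, 4.41% higher and 3.15% lower. Over all 6 libraries 13 members were called, where 7.95% of all genes were, with MXI1 and ENO2 added and PKM lost. As a median, the log2 fold change of the members was 0.21 (0.20 with L1high replicate 3 included), against 0.00164 for all genes tested, and 33 of the 39 had a positive value (84.6%, against 50.3% of all genes). In 25 members (64.1%) each L1low library stood above each L1high library, which was so for 15.2% of all genes. The reverse held for PGAM1 alone, and for 13.7% of all genes. In bulk libraries, more cells with a transcript and more transcript per cell cannot be told apart. The members were chosen with results of these data known, so these shares describe the list and test nothing about it.

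**Figure D1:**
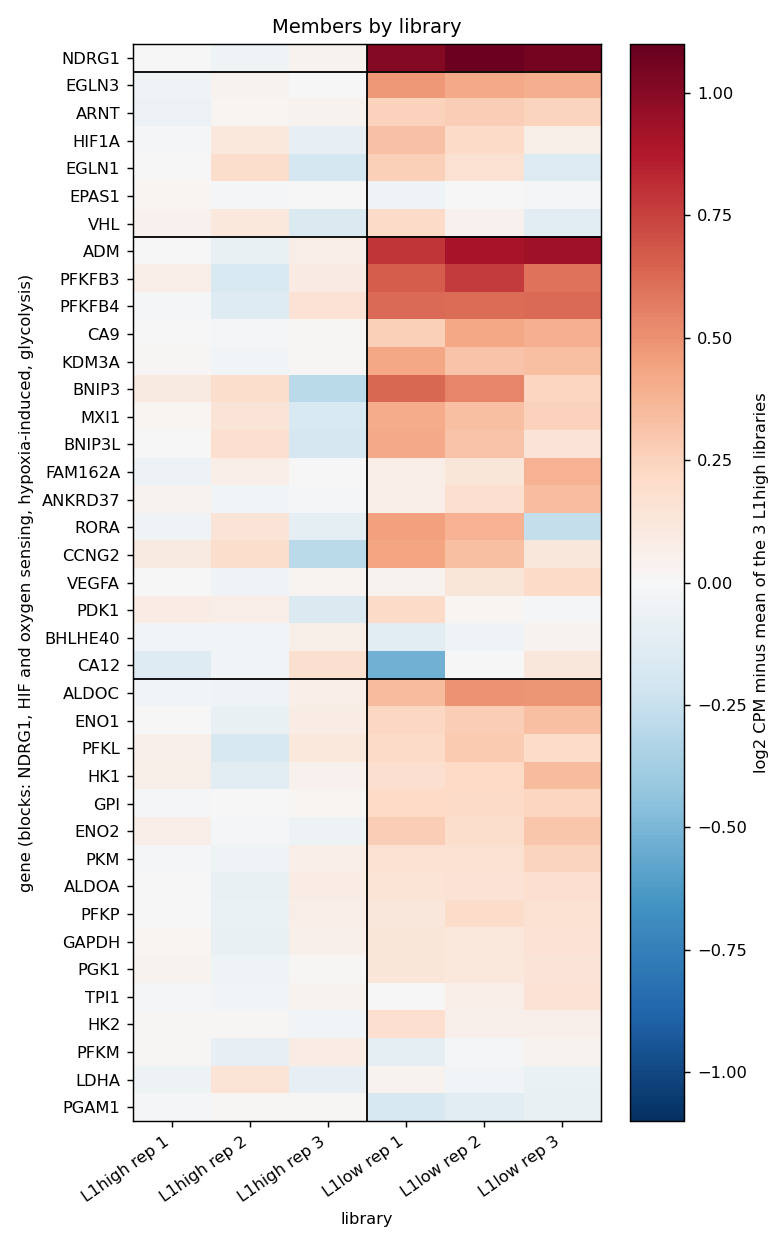
Levels of the 39 members (rows) in the 6 libraries (columns), as log2 CPM minus the mean of the 3 L1high libraries, in blocks for NDRG1, HIF and oxygen sensing, hypoxia-induced genes and glycolytic enzymes. NDRG1, ADM, PFKFB3 and PFKFB4 show the strongest colour in all 3 L1low libraries, while EPAS1, BHLHE40, PFKM and LDHA stay near that of the L1high libraries.

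NDRG1 (ENSG00000104419, GRCh38 chromosome 8, positions 133237175 to 133302022, minus strand) was the member that rose most. Its level was 974, 938 and 999 CPM in L1high and 1959, 2046 and 2014 CPM in L1low libraries. The groups were far apart, and the SD was 31.0 CPM within the L1high and 44.1 within the L1low libraries (n = 3 each). The log2 fold change was 1.08 (standard error 0.07, 95% interval 0.93 to 1.23, adjusted p = 3.7e-06), or 111% more, and it was 1.05 over all 6 libraries (adjusted p = 2.9e-06). Of the 19469 genes tested, 138 had a larger log2 fold change. No other gene of its family was called, with log2 fold changes of -0.11 for NDRG2, -0.05 for NDRG3 and -0.12 for NDRG4 (adjusted p from 0.61 to 0.84). NDRG3 stood at 94.2 ± 2.46 CPM in L1high and 91.9 ± 5.12 in L1low cells (SD, n = 3 each).

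Genes that act on NDRG1 by routes other than HIF were read from the same fit. Of 17 such genes, 15 were in the table and 3 of these were called (20.0%, against 7.57% of all genes). EGR1, an immediate early transcription factor, was higher (log2 fold change 0.32), as was MXD4, a partner of MAX that opposes MYC (0.47). CEBPA, a differentiation factor, was lower (-0.60), from 12.3 to 14.1 CPM in L1high to 8.04 to 8.92 in L1low libraries. None of these calls held without L1low replicate 2 (adjusted p = 0.16 for EGR1, 0.13 for MXD4 and 0.07 for CEBPA) or without L1high replicate 1 (0.056, 0.17 and 0.054), nor did that of MXD4 without L1high replicate 2 (0.11). MYC itself, whose family represses NDRG1, stood at 494 CPM in L1high and 516 in L1low cells (log2 fold change 0.07, adjusted p = 0.58). SGK1, the kinase that phosphorylates NDRG1, stood at 682 and 601 CPM (-0.19, adjusted p = 0.10). MYCN and SGK2 were not in the table.

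Of the HIF subunits and oxygen sensors, 2 of 6 were called (33.3%, against 7.57% of all genes). EGLN3, an oxygen-dependent hydroxylase that is itself a HIF target, had 80.1, 84.9 and 82.8 CPM in L1high and 115, 110 and 109 in L1low libraries. No L1high library reached the lowest L1low library (log2 fold change 0.44, standard error 0.08, adjusted p = 0.0048). ARNT, the shared partner of both alpha subunits, had 73.8, 78.2 and 79.0 CPM in L1high and 91.7, 92.6 and 91.3 in L1low libraries. Its groups did not overlap either, but the difference was close to the threshold (log2 fold change 0.28, adjusted p = 0.048). It was not called without L1low replicate 1 (adjusted p = 0.076), L1low replicate 2 (0.21) or L1high replicate 1 (0.2), nor with RLE scaling (0.054), upper-quartile scaling (0.05) or library totals only (0.062).

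The alpha subunits and the other sensors were not called. HIF1A had 661, 727 and 630 CPM in L1high and 841, 776 and 704 in L1low libraries, with 1 L1low library inside the L1high range (log2 fold change 0.17, 95% interval -0.02 to 0.35, adjusted p = 0.27). With an offset for GC content and transcript length HIF1A was called (0.33, adjusted p = 9.7e-04). EPAS1 stood at 176 to 182 CPM in L1high and 173 to 179 in L1low libraries, with an interval of the change from -11.1% to 10.4%. EGLN1, the main hydroxylase of HIF1A in most cells, had a log2 fold change of 0.02 with an interval from -0.24 to 0.27, and VHL one of -0.02 with an interval from -0.28 to 0.24. Of 14 further genes of the pathway in the table, 1 was called (7.14%, against 7.57% of all genes). It was CREBBP, a HIF coactivator, which was higher (0.37, adjusted p = 0.02). CREBBP was not called without L1low replicate 2 (0.14) or L1high replicate 1 (0.11), nor with the GC and length offset (0.079). The coactivator EP300 (0.26, adjusted p = 0.064), the asparagine hydroxylase HIF1AN (0.11) and the ligase subunit CUL2 (-0.31, adjusted p = 0.12) were not called. HIF3A and CITED4 were not in the table.

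**Figure D2:**
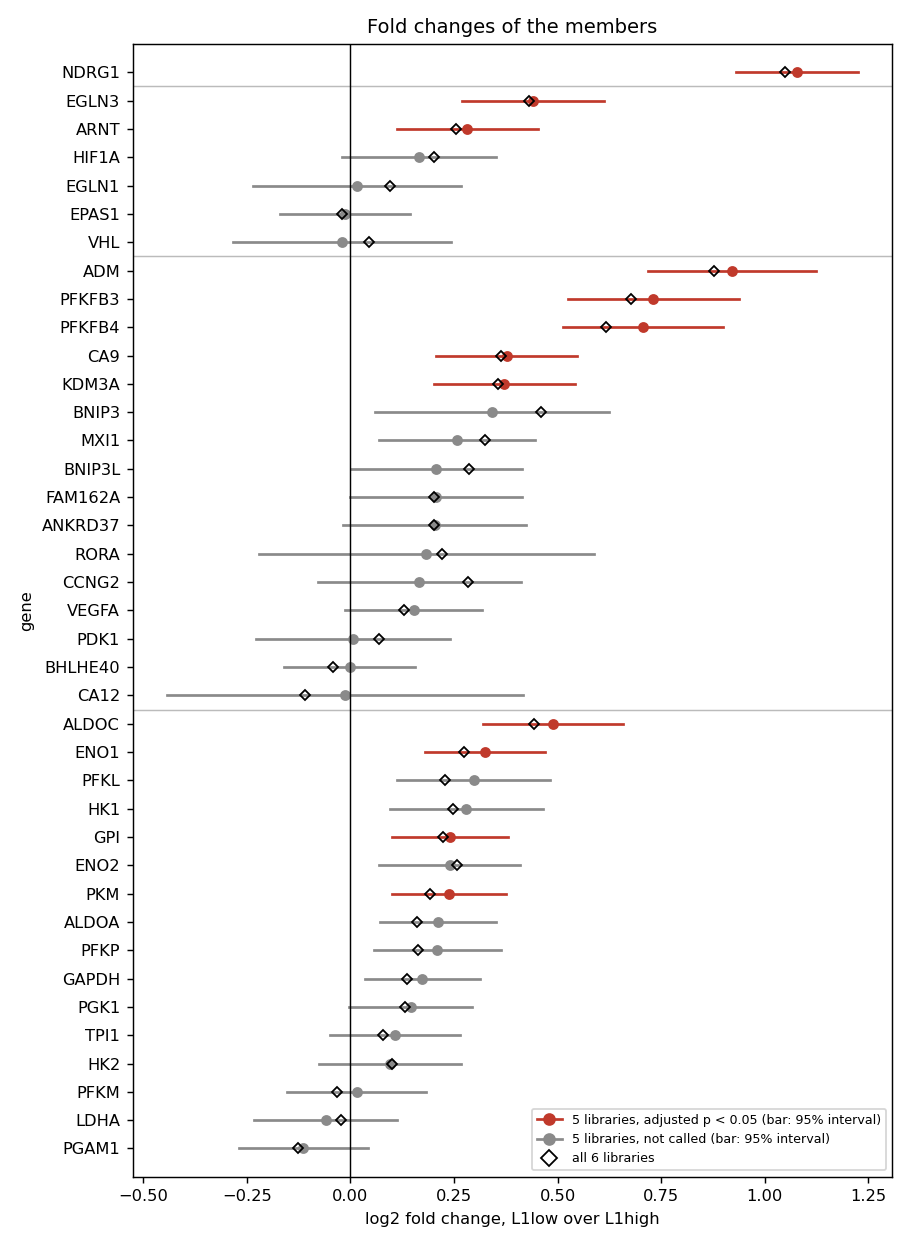
Log2 fold change of each member, L1low over L1high, with the 95% interval from the test over 5 libraries (circles and bars, red where called) and the value over all 6 libraries (diamonds). NDRG1 (1.08), ADM (0.92), PFKFB3 (0.73) and PFKFB4 (0.71) lie farthest to the right, and no member was called lower.

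Of the 16 hypoxia-induced genes, 5 were called higher (31.2%, against 4.41% of all genes) and none lower. The median log2 fold change of the 16 was 0.21 (0.28 with L1high replicate 3 included). ADM, which encodes the vasodilator peptide adrenomedullin, had 32.05, 30.13 and 33.50 CPM in L1high and 55.10, 59.67 and 60.82 in L1low libraries. Its rise came next to that of NDRG1 among the members (log2 fold change 0.92, standard error 0.09, adjusted p = 6.7e-05), and its 95% interval of 0.72 to 1.12 overlapped that of NDRG1. PFKFB3 and PFKFB4 encode enzymes that make fructose bisphosphate signals which speed up phosphofructokinase. PFKFB3 had 67.7, 57.5 and 68.7 CPM in L1high and 102, 110 and 97.8 in L1low libraries (log2 fold change 0.73, adjusted p = 4.9e-04). PFKFB4 had 39.2, 36.0 and 44.3 CPM in L1high and 61.2, 60.6 and 61.1 in L1low libraries (0.71, adjusted p = 3.7e-04). The L1low libraries of PFKFB4 were almost equal and stood above all L1high libraries. PFKFB2, of the same family, stood at 60.6 and 55.5 CPM and was not called (-0.09).

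CA9 and KDM3A rose by less. CA9, a carbonic anhydrase of the cell surface that is used as a tissue marker of hypoxia, had 139.5, 138.1 and 140.4 CPM in L1high and 167.5, 186.9 and 183.2 in L1low libraries (log2 fold change 0.38, standard error 0.08, adjusted p = 0.012). KDM3A, a histone demethylase, had 91.4, 88.5 and 91.1 CPM in L1high and 121, 112 and 114 in L1low libraries (0.37, standard error 0.08, adjusted p = 0.013). In both genes the L1high libraries were almost equal and the L1low libraries all higher. Neither was called without L1low replicate 2 (adjusted p = 0.11 for CA9 and 0.073 for KDM3A). ARHGEF39, which overlaps CA9 on the opposite strand, had 83.1% as many counts and had a log2 fold change of -0.10. The related CA12 was low, between 4.51 and 7.37 CPM, and its groups overlapped.

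Other well-known targets were not called. VEGFA, the vessel growth factor, had 278.5, 270.6 and 283.3 CPM in L1high and 284.3, 304.5 and 321.6 in L1low libraries (log2 fold change 0.15, adjusted p = 0.25). Its L1low libraries all stood above the L1high ones, the lowest of them only just, and the 95% interval of the change ran from -0.857% to 24.7%. PDK1, a mitochondrial kinase that inhibits pyruvate dehydrogenase, had 27.8, 27.6 and 23.5 CPM in L1high and 30.4, 26.6 and 25.8 in L1low libraries (0.01, interval -0.23 to 0.24). BHLHE40, a transcription repressor, stood at 541 to 578 CPM in L1high and 507 to 570 in L1low libraries (-0.00196, interval -0.16 to 0.16). The groups of both genes overlapped, and their intervals exclude a rise of the size seen in NDRG1, ADM, PFKFB3 or PFKFB4.

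The mitophagy receptors and the remaining targets lay between. BNIP3 had 18.6, 19.9 and 14.2 CPM in L1high and 27.0, 25.2 and 20.5 in L1low libraries (log2 fold change 0.34, 95% interval 0.06 to 0.62, adjusted p = 0.14), and it was called without L1low replicate 3 (0.45, adjusted p = 0.02). BNIP3L (0.21), FAM162A (0.21), ANKRD37 (0.20), RORA (0.18) and CCNG2 (0.17) all missed the threshold (adjusted p from 0.21 to 0.6), BNIP3L being called without L1high replicate 2 (0.38, adjusted p = 0.033) and with the GC and length offset (0.36, adjusted p = 0.0015). MXI1, an antagonist of MYC, had 65.8, 71.7 and 57.9 CPM in L1high and 85.9, 81.6 and 77.1 in L1low libraries. MXI1 was called over all 6 libraries (0.32, adjusted p = 0.044) but not over the 5 (0.26, adjusted p = 0.097). It was also called with the GC and length offset, without L1low replicate 3 and without L1high replicate 2. In BNIP3, MXI1 and CCNG2 the lowest library of each group was replicate 3. The same held for HIF1A, VHL, EGLN1, BNIP3L, PDK1, RORA, HK2 and LDHA. It did not hold for the other members, NDRG1 among them, and its share over all genes was not counted. UFSP2, which overlaps ANKRD37 on the opposite strand, had 121% as many counts.

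**Figure D3:**
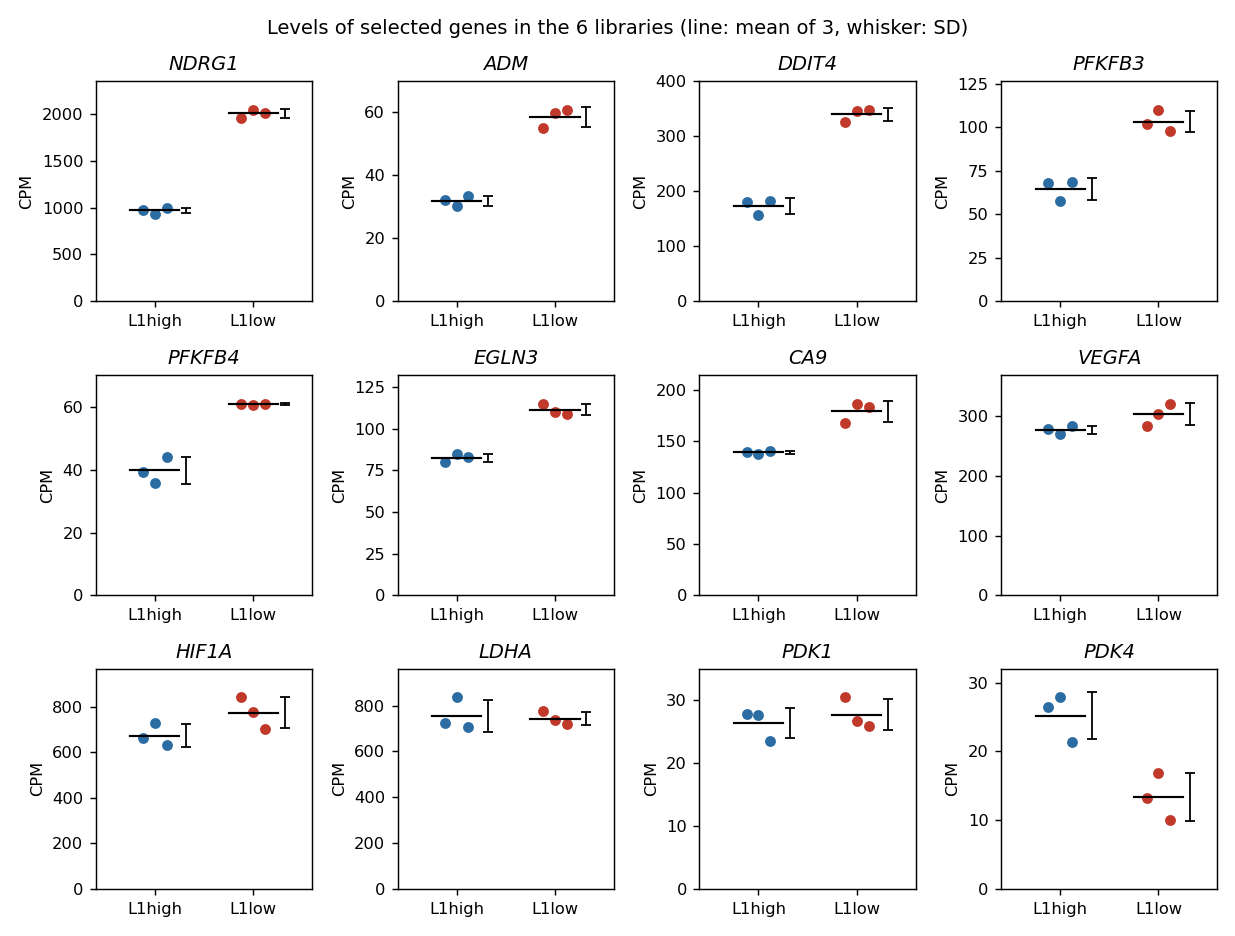
CPM of 12 genes in the 3 L1high (blue) and 3 L1low (red) libraries, with the mean of 3 as a line and the SD as a whisker, each axis from 0. NDRG1, ADM, DDIT4, PFKFB3, PFKFB4, EGLN3 and CA9 are higher in every L1low library, the groups of HIF1A, LDHA and PDK1 overlap, and PDK4 is lower.

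A wider list held 40 hypoxia-induced genes outside the members. Of the 39 in the table, 13 were called higher (33.3%, against 4.41% of all genes) and 2 lower. The median log2 fold change of the 39 was 0.27 (0.25 with L1high replicate 3 included). DDIT4, an inhibitor of mTOR that low oxygen and other stresses induce, rose from 181, 157 and 182 CPM in L1high to 327, 346 and 348 in L1low libraries (log2 fold change 1.02, adjusted p = 9.7e-06). Its L1low libraries were close to each other and all far above the L1high ones. ANGPTL4, a lipase inhibitor (0.85), LOXL2, a collagen cross-linking enzyme (0.79), ZNF395, a transcription factor (0.76), and IGFBP3, which binds insulin-like growth factors (0.53), were the next largest among those called. Among the others that rose were NDUFA4L2, SLC2A1, PLIN2, RIOK3, GYS1, P4HA1 and PLOD1, with log2 fold changes from 0.35 to 0.47. Without L1low replicate 2, P4HA1 (adjusted p = 0.15), RIOK3 (0.13), PLOD1 (0.12) and GYS1 (0.093) were not called. Nor were P4HA1 (0.085), PLOD1 (0.068) and RIOK3 (0.051) without L1high replicate 1, or P4HA1 without L1low replicate 1 (0.064). TMEM45A (-0.58) and TFRC, the transferrin receptor (-0.42), were lower, but neither was called without L1low replicate 2 (adjusted p = 0.059 and 0.057), nor TMEM45A without L1high replicate 1 (0.08) or 2 (0.085). Without L1low replicate 2 the list had 8 genes called higher and 0 lower. ERO1A (0.00238), MIF (-0.02), SLC16A3, the lactate exporter (0.08), STC1 (-0.12), HILPDA (0.17) and SLC2A3 (-0.17) were not called. Some of these genes also answer to signals other than low oxygen.

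Immediate early and heat shock genes that tissue handling and sorting can induce were measured beside these. Of 10 such genes 5 were called higher (50.0%, against 4.41% of all genes) and none lower. The 5 were ATF3 (log2 fold change 0.50), FOSB (0.46), IER2 (0.43), EGR1 (0.32) and FOS (0.25). The summed level of the 10 was 7649 to 8264 CPM in L1high and 9596 to 10308 in L1low libraries, while HSPA1A (0.08) and HSPA1B (0.02) were not called. FOS, IER2 and EGR1 were not called without L1low replicate 2 (adjusted p = 0.22, 0.12 and 0.16) or without L1high replicate 1 (0.12, 0.082 and 0.056). Nor were FOS and IER2 without L1high replicate 2 (0.071 and 0.066), or FOS with upper-quartile scaling (0.051). The part of these 10 genes in the rise of the members was not tested.

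The letters of the HIF core site, ACGTG or GCGTG, were searched on both strands in the 250 bases before each RefSeq start site (GRCh38.p14), since members that move together could share them. Overlapping matches were counted as 1 site. Windows were found for 35 of the 39 members, and NDRG1, BNIP3L, VEGFA and VHL had none. A match lay in some window of 8 of the 11 members called higher (72.7%), of 22 of the 24 members not called (91.7%), and of 47.4% of all RefSeq genes. By window, 62.3% of the members' 61 windows and 43.2% of all 35116 windows held a match, and a gene with several start sites has more chances of one. A match is a description of the letters and says nothing of whether HIF bound there. No match lay in the windows of EGLN3, ARNT and PKM, which were called higher. Shown are windows with a match, of 3 members called higher (CA9, ADM and ALDOC) and 2 glycolytic members not called (PGK1 and LDHA). They are in lower case with the matches in capitals.
CA9, chr9:35673678-35673927, plus strand: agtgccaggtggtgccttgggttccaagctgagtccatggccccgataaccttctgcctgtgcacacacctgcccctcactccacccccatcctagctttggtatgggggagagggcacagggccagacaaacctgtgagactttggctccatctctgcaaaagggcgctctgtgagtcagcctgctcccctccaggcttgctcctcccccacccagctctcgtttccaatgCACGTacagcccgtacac
ADM, chr11:10304823-10305072, plus strand: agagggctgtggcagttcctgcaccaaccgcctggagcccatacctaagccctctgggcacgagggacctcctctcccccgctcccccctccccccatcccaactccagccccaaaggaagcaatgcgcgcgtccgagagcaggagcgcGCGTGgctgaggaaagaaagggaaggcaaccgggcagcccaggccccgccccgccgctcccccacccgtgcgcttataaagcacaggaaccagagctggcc
ALDOC, chr17:28576896-28577145, minus strand: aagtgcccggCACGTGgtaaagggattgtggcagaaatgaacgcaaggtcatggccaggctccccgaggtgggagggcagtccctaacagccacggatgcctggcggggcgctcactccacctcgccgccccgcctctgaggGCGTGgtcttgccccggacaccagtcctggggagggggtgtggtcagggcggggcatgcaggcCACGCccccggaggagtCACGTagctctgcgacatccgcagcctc
PGK1, chrX:78103998-78104247, plus strand: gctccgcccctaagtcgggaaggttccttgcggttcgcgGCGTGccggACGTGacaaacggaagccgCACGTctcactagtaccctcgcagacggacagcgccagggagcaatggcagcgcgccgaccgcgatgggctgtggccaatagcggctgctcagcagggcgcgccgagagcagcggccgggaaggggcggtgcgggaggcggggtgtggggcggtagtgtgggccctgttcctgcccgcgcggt
LDHA, chr11:18394313-18394562, plus strand: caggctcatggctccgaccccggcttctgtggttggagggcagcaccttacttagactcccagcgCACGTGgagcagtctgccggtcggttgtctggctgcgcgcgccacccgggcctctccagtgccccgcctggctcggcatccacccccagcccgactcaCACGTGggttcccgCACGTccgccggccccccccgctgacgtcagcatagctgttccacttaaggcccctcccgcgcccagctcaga
The single match of CA9 begins 18 bases before the start and that of ADM 101 bases before it. ALDOC has 4 sites, and LDHA and PGK1 have 3 each in the windows shown.

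Of the 16 enzymes of glycolysis, 4 were called higher and none lower, where 4.41% of all genes were called higher and 3.15% lower. The median of their log2 fold changes was 0.21 (0.16 with L1high replicate 3 included). In 12 of them (75.0%, against 15.2% of all genes) every L1low library stood above every L1high library. Their summed level was 17943, 17292 and 18649.7 CPM in L1high and 19925, 20001 and 20598 in L1low libraries, with no overlap. The log2 fold changes ran from -0.11 for PGAM1 to 0.49 for ALDOC, below that of NDRG1.

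At the entry to the pathway, HK1, the hexokinase found in most tissues, had 156, 137 and 154 CPM in L1high and 168, 173 and 190 in L1low libraries and missed the threshold (log2 fold change 0.28, adjusted p = 0.067), although it was called with the GC and length offset (0.22, adjusted p = 0.044). HK2, the inducible hexokinase, differed by less (0.09, interval -0.08 to 0.27). Per kilobase of transcript HK1 was the more abundant, at 41.4 CPM per kb against 18.3 for HK2 in L1high cells. GPI, the isomerase that follows, had 1160, 1184 and 1193 CPM in L1high and 1370, 1365 and 1392 in L1low libraries (0.24, standard error 0.06, adjusted p = 0.042). It was called over all 6 libraries (adjusted p = 0.025) but not without L1low replicate 1 (0.073), L1low replicate 2 (0.19) or L1high replicate 1 (0.16), nor with upper-quartile scaling (0.05). Of the phosphofructokinases, PFKP was the most abundant per kilobase, at 158 CPM per kb in L1high cells against 59.9 for PFKL and 55.4 for PFKM. None of them was called, with log2 fold changes of 0.21, 0.30 and 0.01 and adjusted p-values of 0.096, 0.052 and 0.93. PFKL was called with DESeq2 (0.29, adjusted p = 0.038) and without L1low replicate 3 (0.31, adjusted p = 0.03).

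In the middle of the pathway, ALDOC rose and ALDOA missed the threshold. ALDOC, the aldolase typical of brain, had 136, 134 and 146 CPM in L1high and 177, 195 and 194 in L1low libraries (log2 fold change 0.49, standard error 0.08, adjusted p = 0.0021). An antisense RNA gene that overlaps it, ENSG00000265168, rose alike (0.47), and the 2 cannot be separated unless the counting used strand, which is not given in the sources used here. ALDOA stood at 1687.5 CPM per kb in L1high cells against 86.4 for ALDOC, and its log2 fold change was 0.21 (adjusted p = 0.068). ALDOA was called with the GC and length offset (0.18, adjusted p = 0.024). TPI1 (0.11), GAPDH (0.17), PGK1 (0.15) and PGAM1 (-0.11) were not called. GAPDH, against which the study normalised its qPCR, had 4795, 4477 and 4916 CPM in L1high and 5193, 5134 and 5267 in L1low libraries. All L1low libraries of GAPDH stood above the L1high ones, by a fitted 12.8% (interval from 2.499% to 24.1%, adjusted p = 0.12).

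At the end of the pathway, ENO1 and PKM rose and LDHA was not called. ENO1, the common enolase, had 2247, 2121 and 2380 CPM in L1high and 2636, 2704 and 2818 in L1low libraries (log2 fold change 0.32, standard error 0.07, adjusted p = 0.011). PKM, the pyruvate kinase of most tumors, had 3493, 3440 and 3736 CPM in L1high and 3986, 3997 and 4205 in L1low libraries. Its groups did not overlap, but the call over the 5 libraries (0.24, adjusted p = 0.04) was lost over all 6 (0.19, adjusted p = 0.062), with upper-quartile scaling (0.051) and without L1low replicate 1 (0.06), L1low replicate 2 (0.17), L1high replicate 1 (0.25) or L1high replicate 2 (0.12). ENO1 was called over all 6 (adjusted p = 0.017) but not without L1low replicate 2 (0.089) or L1high replicate 1 (0.099). ENO2, the enolase of neurons, had 112, 105 and 103 CPM in L1high and 128, 122 and 132 in L1low libraries, and was called over all 6 libraries (0.26, adjusted p = 0.041) but not over the 5 (0.24, adjusted p = 0.088). LDHA, which turns pyruvate into lactate and is a textbook HIF target, had 722, 836 and 706 CPM in L1high and 775, 736 and 717 in L1low libraries. Its groups overlapped, and the interval of the change ran from -14.85% to 8.02%.

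**Figure D4:**
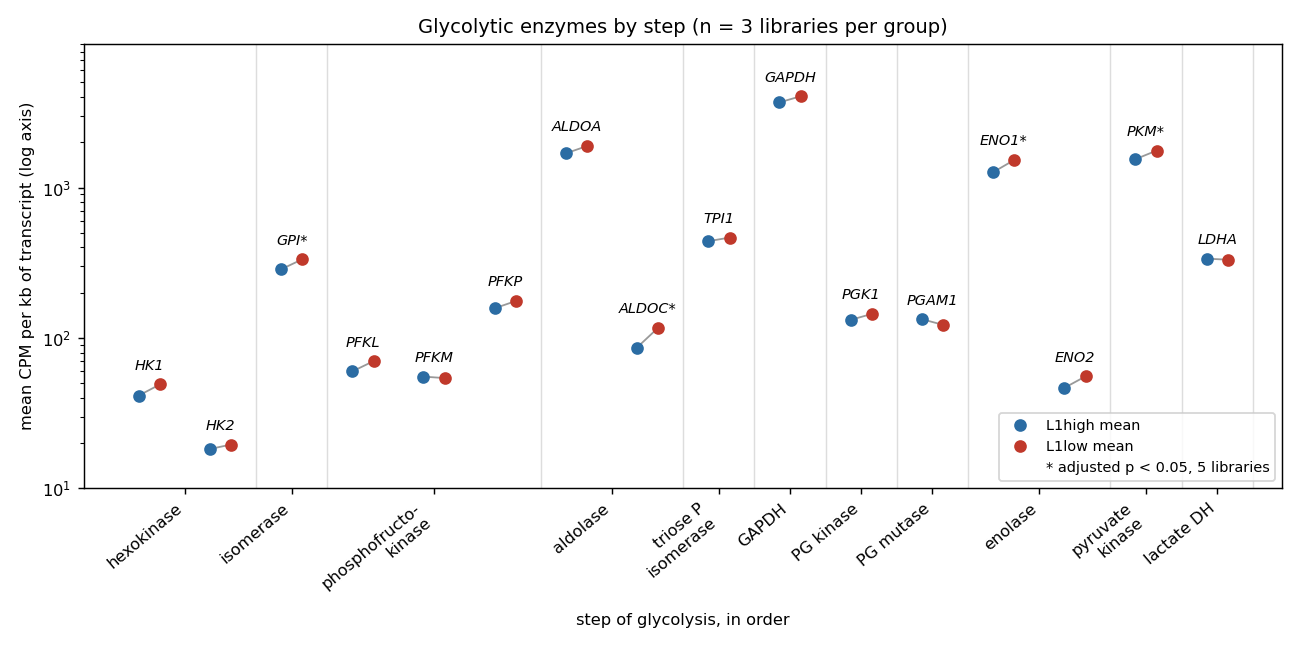
Mean level of the 16 glycolytic enzymes in L1high (blue) and L1low (red) cells, in CPM per kb of the canonical transcript on a log axis, in the order of the pathway, with an asterisk where called over 5 libraries. GAPDH, ALDOA, PKM and ENO1 are the most abundant, and GPI, ALDOC, ENO1 and PKM carry the asterisk.

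Of 40 genes around the pathway (transporters, other isoenzymes, pyruvate entry), 33 were in the table. Of the 33, 1 was called higher and 5 lower (18.2% called, against 7.57% of all genes). The median log2 fold change of the 33 was -0.05. SLC2A5, a fructose transporter, rose from 1.04, 1.02 and 1.04 CPM in L1high to 3.41, 3.79 and 3.95 in L1low libraries (log2 fold change 1.85, adjusted p = 7.1e-04). DESeq2 gave SLC2A5 no adjusted p, with a log2 fold change of 1.85. PDK4, another such kinase, fell from 26.4, 27.9 and 21.3 CPM to 13.2, 16.9 and 10.05 (-1.01, adjusted p = 0.0025). The groups of PDK4 did not overlap, and its relatives PDK2 (0.32) and PDK3 (-0.18) were not called. Of the mitochondrial pyruvate carrier both subunits were lower, MPC2 with a log2 fold change of -0.49 (adjusted p = 0.01) and MPC1 with one of -0.43 (adjusted p = 0.04). Without L1low replicate 2 neither was called (adjusted p = 0.053 for MPC2 and 0.19 for MPC1), and MPC1 was not called without L1low replicate 1 (0.07), L1high replicate 1 (0.093) or L1high replicate 2 (0.089) either. The other 2 that fell were SLC2A6, of the glucose transporter family (-1.12), at 0.780 to 2.07 CPM over the libraries, and SLC2A13, a myo-inositol transporter (-0.67). Each lost its call in 4 of the 5 fits that left out a replicate, and DESeq2 did not call SLC2A13 (adjusted p = 0.069) and gave SLC2A6 no adjusted p. LDHB (-0.03), PDHA1 (-0.05) and the lactate transporter SLC16A1 (0.29, adjusted p = 0.095) were not called.

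Several of these genes share sequence with copies elsewhere, and BWA, the aligner used, is not splice-aware. Of the members, 10 had processed pseudogenes in the table. BNIP3P1 had 127% as many counts as BNIP3 and was itself called higher (log2 fold change 0.68, adjusted p = 0.0044). When its counts were added to those of BNIP3, the sum was called (0.53, standard error 0.09, adjusted p = 0.0024). The 2 TPI1 pseudogenes together had 77.1% as many counts as TPI1 itself, and this ratio was 51.6% for the 14 of GAPDH, 28.3% for the 2 of PGK1, 26.2% for the 2 of ENO1 and 25.5% for the 6 of LDHA. Of single pseudogenes, TPI1P1 had 76.9%, GAPDHP1 33.6% and GAPDHP65 10.2% as many counts as the parent gene. ENO1P1 had 26.2%, PGK1P1 16.3% and PGK1P2 12%, and HK2P1 and LDHAP4 16.2% and 16.1%. With all such counts added, 13 members were called, BNIP3 being the 1 gained, and the sums for TPI1 (0.14), GAPDH (0.17), PGK1 (0.17) and LDHA (-0.02) were not called. The levels of these genes are therefore uncertain. Some gene models that overlap a member also had many counts. ENSG00000285043, on the strand of ALDOA, had 97.8% as many as ALDOA, and ENSG00000269968, on the strand opposite GAPDH, had 63.2% as many as GAPDH. SPTSSA, on the strand of EGLN3, had 45.7% as many as EGLN3, and ENSG00000266953, on the strand of GPI, 20.1% as many as GPI. PDK1-AS1, opposite PDK1, had 55.9% as many as PDK1. In each library ENSG00000285043 had nearly as many counts as ALDOA. It had 57699 against 58851 in L1high replicate 1 and 54702 against 55610 in L1low replicate 1. Such overlapping rows may hold the same reads and cannot be taken as independent. The counting options that would settle this are not given in the sources used here.

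**Figure D5:**
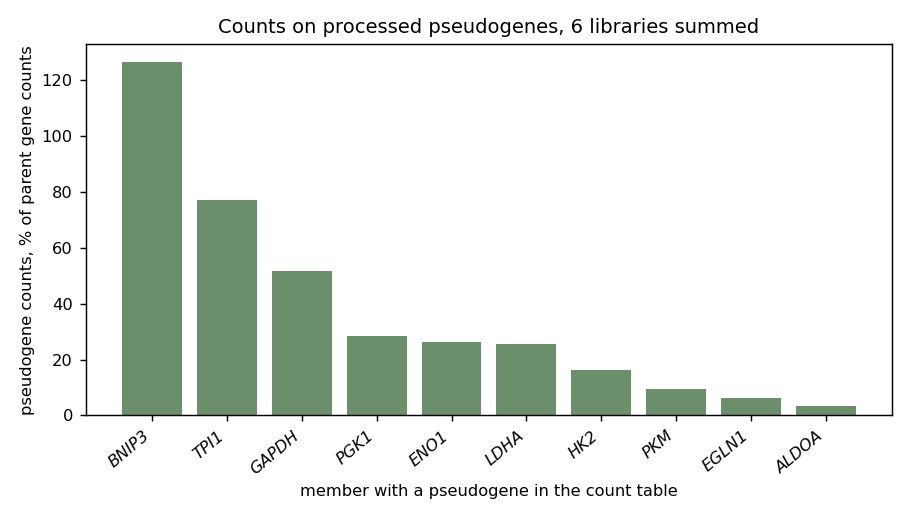
Counts on processed pseudogenes in percent of those on the parent gene, over all 6 libraries, for the 10 members with such a pseudogene in the table. The bars run from 3.28% for ALDOA to 127% for BNIP3.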

How the data were processed

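RNA-seq of FACS-sorted L1high and L1low L3.6pl cells was used (3 libraries each). The authors trimmed paired-end reads of stranded mRNA libraries, used BWA to align them to GRCh38 and featureCounts to assign them to Ensembl release 94 genes, and the deposited values are raw read counts. Their versions and the strand, overlap and multi-mapping options are not given in the sources used here, and the submitters' processing notes also name DESeq2. No gene of the table fails a minimum of 1 CPM in at least 2 libraries, and genes below that level were not assessed.

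Genes were named with GENCODE release 44 (19344 of 19469 identifiers matched). Counts were tested in R 4.3.3 with edgeR 4.0.16 (TMM, filterByExpr, quasi-likelihood test, Benjamini-Hochberg adjustment over all genes). The standard error is the log2 fold change divided by the square root of F, and intervals are 95%. The filter kept all 19469 genes over the 5 libraries. Precision follows the counts, and the median standard error was 0.08 for the members and 0.13 for all genes. CPM per kb uses the canonical transcript. Other settings tried were all 6 libraries, leaving out each replicate, the replicate block, DESeq2 1.42.0, other scalings and filters, a GC and length offset, and added pseudogene counts.

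The members and lists were chosen with earlier results of these data known. All members are named, and of each other list the called genes, up to 5 in each direction by fold change. Also named are L1CAM, pseudogenes with at least 10% as many counts as the parent gene, and some of the genes that overlap a member. Genes named beyond this rule were chosen after their values were seen, and a few genes of the lists are counted but not reported here by name. No 2 libraries of a group were duplicates (smallest chi-square per degree of freedom 3.66).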

Additional observations from a re-analysis of the deposited data

How the results depend on the processing

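Of 673 values under 15 alternatives, 619 stayed on the same side of the threshold or within 1.5 times the count, 20 were weaker, 20 stronger and 14 moved, and none reversed a call. NDRG1, ADM, PFKFB3, PFKFB4, EGLN3 and ALDOC were called in all 16 settings, and the log2 fold change of NDRG1 ran from 1.02 to 1.09. A further 15 members were called in some settings and 18 in none. Leaving out 1 library mattered most. Without L1low replicate 2, 551 genes, 6 members, 3 hypoxia-induced and 1 glycolytic member, 8 of the wider hypoxia list and 2 of the wider glucose list were called. Without L1high replicate 1, 674 genes, 8 members, 1 glycolytic enzyme and 3 genes of the wider glucose list were called, and without L1low replicate 1, 2 glycolytic enzymes. Over the 5 fits that left out a replicate, the counts ran from 551 to 1649 for all genes, 6 to 15 for members, 3 to 7 for hypoxia-induced members, 1 to 5 for glycolytic enzymes, 8 to 19 for the wider hypoxia list and 2 to 5 for the wider glucose list. Upper-quartile scaling called 2 glycolytic enzymes, and DESeq2 3 genes of the wider glucose list, all lower, with no adjusted p for SLC2A5 and SLC2A6. The GC and length offset added HIF1A, BNIP3L, MXI1, HK1 and ALDOA to the 12 members called over the 5 libraries. The causes were not tested. With the replicate number as a block over all 6 libraries, 2363 genes, 18 members and 9 hypoxia-induced members were called, with BNIP3, BNIP3L, MXI1, CCNG2, HK1 and ENO2 added to the 12. The labels do not say that a number marks a shared sort. Deviations of same-numbered libraries correlated over genes at 0.07, 0.09 and 0.21, and each library correlated best with its own number, a hint from the data and not from the design. Dropping the low-count filter changed nothing, since it had kept all genes over the 5 libraries.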
